A study of Homo sapiens with 6 samples.

Results

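The MAPK feedback genes considered here were 10 genes chosen by name: the MAP kinase phosphatases DUSP1, DUSP4, DUSP5, DUSP6 and DUSP10, the Sprouty and Spred inhibitors SPRY2, SPRY4 and SPRED1, and the transcription factors ETV5 and EGR1. They were found through their Ensembl identifiers among 60660 annotated genes, and all 10 passed the filter on low counts that left 15155 genes for testing. The RNA came from 12Z cells, an immortalized epithelial cell line derived from endometriosis, a disease in which endometrium-like tissue grows outside the uterus. Control cells received a non-targeting siRNA and knockdown cells received siRNA LINC01133a against the long non-coding RNA LINC01133, in both cases by lipid transfection at 10 nM, with lysis 72 h later. Each group had 3 libraries, which the study describes as biological replicates. A single siRNA and a single line were sequenced, so an effect of the lost LINC01133 and an effect of this oligo on other transcripts cannot be told apart.

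In the MAPK pathway, growth factor receptors activate RAS, which passes the signal through RAF and MEK kinases to the kinase ERK, and parallel routes end at the stress-activated kinases JNK and p38. Active ERK induces immediate early genes such as EGR1, and it also induces its own brakes. Dual-specificity phosphatases remove the activating phosphates from MAP kinases, while Sprouty and Spred proteins act higher up, around RAS and RAF. Transcript levels of these genes are widely used as a readout of ERK output, but they do not measure kinase activity, and no phosphorylation was measured in these libraries.

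The siRNA that separated the groups, and the promoters of the 2 members that changed most, are shown here because the results below refer to them. Capitals in the siRNA strands mark the seed, bases 2 to 8, through which an siRNA can also pair with the 3′ UTRs of other transcripts.
LINC01133a guide: uCCAUUCUcagguaacuuc
LINC01133a passenger: gAAGUUACcugagaaugga
The promoters are the 250 bases before the start of the gene in RefSeq on GRCh38.p14, at chr5:138465229-138465478 on the plus strand for EGR1 and at chr13:80341127-80341376 on the minus strand for SPRY2, the outermost of its 3 RefSeq starts. Capitals mark CArG boxes, the sites of the serum response factor SRF, in EGR1 and the ETS core in SPRY2.
EGR1: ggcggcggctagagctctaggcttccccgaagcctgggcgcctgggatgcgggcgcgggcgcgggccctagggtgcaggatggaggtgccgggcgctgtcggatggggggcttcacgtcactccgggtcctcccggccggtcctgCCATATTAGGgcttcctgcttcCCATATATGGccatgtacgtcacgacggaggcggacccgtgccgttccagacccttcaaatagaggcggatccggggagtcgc
SPRY2: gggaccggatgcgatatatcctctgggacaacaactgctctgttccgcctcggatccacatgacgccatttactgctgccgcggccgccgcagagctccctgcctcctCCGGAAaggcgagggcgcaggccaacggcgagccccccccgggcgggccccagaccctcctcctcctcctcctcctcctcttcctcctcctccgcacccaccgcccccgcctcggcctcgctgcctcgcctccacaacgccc

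The targeted RNA was examined first. LINC01133 had 25.1, 25.3 and 25.9 CPM (counts scaled to 1e+06 per library, on library sizes corrected by the TMM method) in the control libraries and 4.01, 4.05 and 4.28 CPM in the knockdown libraries, so that 16.1% of the control level remained. Among epithelial markers, KRT8 stood at a mean of 3230 CPM in control, whereas EPCAM was nearly absent at 0.421 CPM, and the stromal genes LUM, THY1 and DCN were present at 358, 338 and 182 CPM. The summed level of the 6 epithelial markers lay between 6178 and 6514 CPM in control and between 3947 and 4132 CPM in knockdown libraries. That of the 6 stromal markers lay between 912 and 1006 CPM in control and between 813 and 849 CPM in knockdown, that of the 4 endothelial markers between 2.47 and 2.84 and between 5.50 and 6.81 CPM, and that of the 5 leukocyte markers stayed under 1 CPM in every library, with CD3E at 0. Within these sums, CDH5 made up the endothelial rise (1.96 to 5.38 CPM, with PECAM1 and CLDN5 near 0), and the stromal gene MME rose from 16.4 to 28.8 CPM while the other 4 stromal markers tested fell. The epithelial sum was mostly KRT8, KRT18 and KRT19, which all fell, as did KRT7. CDH1 fell from 12.7 to 3.16 CPM, whereas EPCAM did not fall and stayed under 1 CPM. By qRT-PCR, the study found the loss of CDH1 as well, but not the reduction of KRT7 and KRT19. The part of these marker changes in the results below was not tested. In such bulk libraries of a single cell line, fewer cells that express a marker and less of its RNA per cell cannot be told apart.

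LINC01133 knockdown moved the feedback genes in different directions. EGR1 was 2.02-fold higher and SPRY2 1.55-fold higher, while DUSP4, ETV5, SPRY4 and, by a small amount, DUSP1 were lower, and DUSP5, DUSP6, DUSP10 and SPRED1 did not pass the test. In the quasi-likelihood test of edgeR, with p adjusted by Benjamini-Hochberg over the 15155 genes, 2 members had an adjusted p under 0.05 and were higher, against 23.3% of all genes, and 4 were lower, against 25.0% of all genes. The 2 higher members also passed a fold change of 1.5, as did 5.30% of all genes in that direction, and none of the members fell past it, against 6.43% of all genes. The 3 control and 3 knockdown libraries did not overlap for 7 of the 10 members, and for 57.3% of all genes. The median log2 fold change was -0.08 over the members and 0.003 over all genes tested, so that the shares of members called were read only against a background in which many genes differed. Of the 1778 genes past both cutoffs, 803 (45.2%) were higher in knockdown, and with library size alone as scaling 55.9% were higher.

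**Figure D1:**
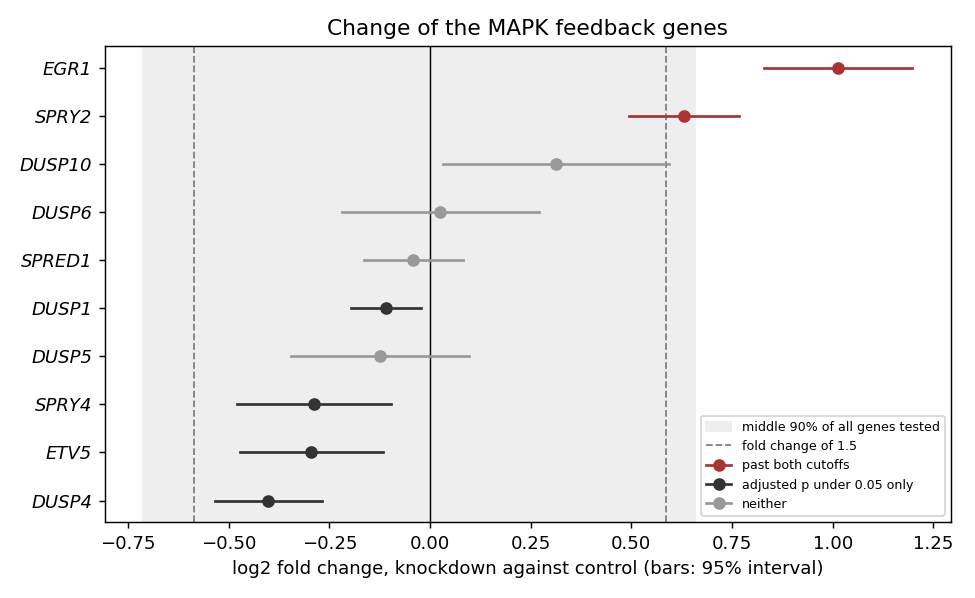
Log2 fold change of each MAPK feedback gene in knockdown against control cells (points) with its 95% interval (bars), the cutoff of 1.5-fold (dashed lines) and the middle 90% of all genes tested (shaded). EGR1 at 1.01 is the only member whose whole interval lies beyond the cutoff, SPRY2 at 0.63 lies just past it, and DUSP4 at -0.40 is the lowest member.

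EGR1 (ENSG00000120738.8, chr5:138465479-138469303, plus strand) encodes an immediate early zinc-finger transcription factor that ERK induces through SRF and its ternary complex partners. Its level was 7.28, 7.17 and 8.39 CPM in the control libraries and 16.0, 15.9 and 14.1 CPM in the knockdown libraries. All 3 knockdown libraries were higher than every control library, by more than the spread within either group (7.61 ± 0.674 against 15.3 ± 1.08 CPM, SD, n = 3). The log2 fold change was 1.01 (SE 0.085, adjusted p = 6.61e-07), and between 0.97 and 1.09 when each library was left out in turn. The values rest on 206 to 262 read pairs in control and 402 to 612 in knockdown libraries.

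The EGR1 window shown above holds 2 CArG boxes, which start 105 and 83 bases before the gene start on its own strand. CArG boxes were found in 1.16% of 35116 RefSeq promoter windows of the same length, on both strands, and in the window of no other member that had one. The SPRY2 window holds the ETS core CCGGAA, which 14.5% of all windows hold, and 2 matches to the EGR site GCGNGGGCG, which 8.41% of all windows hold. The other 2 windows of SPRY2 held none of the motifs searched, and 1 EGR site each was also found in the windows of SPRY4, which fell, and EGR1. The SPRY4 window (chr5:142324248-142324497) lay inside the annotated span of that gene, not before its outermost start. The cyclic AMP response element TGACGTCA was found in the window of DUSP1, and in 1.65% of all windows. The AP-1 site TGANTCA, in 6.57% of all windows, was in none of the windows of the members. Windows were held for DUSP1, DUSP6, DUSP10, SPRY2, SPRY4, SPRED1 and EGR1, and not used here for DUSP4, DUSP5 and ETV5. These matches describe letters only, and factor binding was not measured.

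SRF itself, the factor that binds CArG boxes, stood at 44.6, 40.9 and 41.0 CPM in control and at 58.1, 55.0 and 55.8 CPM in knockdown libraries, without overlap. Its log2 fold change was 0.42 (SE 0.046, adjusted p = 8.62e-06), under the cutoff of 1.5-fold. Of its ternary complex partners, only ELK1 and ELK4 were looked at. ELK1 did not pass the test (log2 fold change 0.01, adjusted p = 0.848), and ELK4 fell by 0.15 (adjusted p = 0.0208) with overlapping groups. Whether any of these factors had a part in the level of EGR1 was not tested. The other EGR genes, EGR2, EGR3 and EGR4, had too few counts to be tested, with EGR4 at 0 in all 6 libraries.

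ETV5 (ENSG00000244405.8, chr3:186046314-186110318, minus strand) belongs to the PEA3 group of ETS transcription factors, which ERK signalling induces. Its level was 13.2, 14.2 and 11.9 CPM in control and 10.2, 11.4 and 10.6 CPM in knockdown libraries. Each knockdown library lay below the lowest control library, at 81.5% of the control mean (log2 fold change -0.29, SE 0.082, adjusted p = 0.00932). Without knockdown replicate 1, the adjusted p was 0.0556. The other members of the PEA3 group were lower as well. ETV4 went from 6.00 to 4.52 CPM (log2 fold change -0.41, SE 0.10, adjusted p = 0.00406), and ETV1 from 14.8 to 11.8 CPM (log2 fold change -0.33, SE 0.073, adjusted p = 0.00202). The 3 PEA3 genes and EGR1, all of them known targets of ERK signalling, thus had log2 fold changes of opposite sign in the same libraries.

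**Figure D2:**
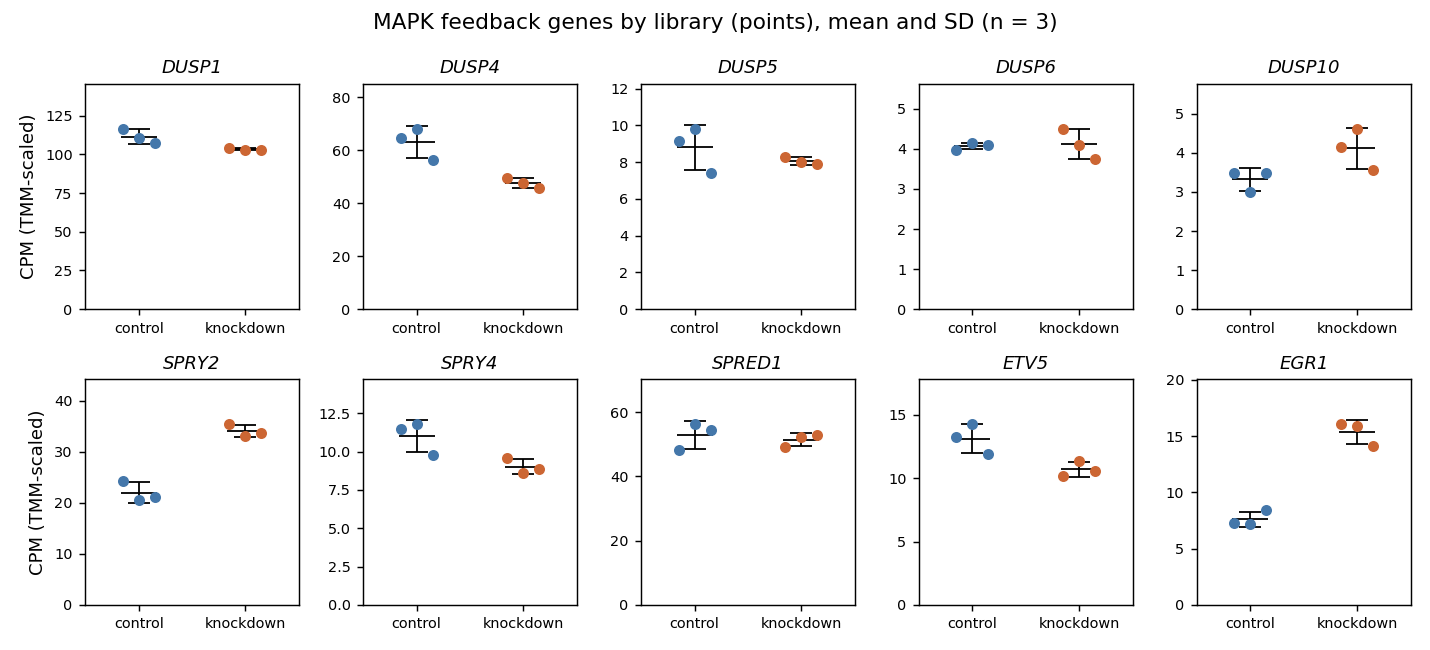
Level of each MAPK feedback gene in every library (points, CPM on TMM-scaled library sizes, axes from 0), with the mean and SD of the 3 control and the 3 knockdown libraries (black). The groups are apart and knockdown is higher for EGR1, SPRY2 and DUSP10, they are apart and knockdown is lower for DUSP1, DUSP4, SPRY4 and ETV5, and they overlap for DUSP5, DUSP6 and SPRED1.

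Sprouty proteins are inducible inhibitors of receptor tyrosine kinase signalling. SPRY2 (ENSG00000136158.12, chr13:80335976-80341126, minus strand) was the member with the second largest rise. It had 24.3, 20.5 and 21.2 CPM in control and 35.4, 33.2 and 33.8 CPM in knockdown libraries, and no knockdown library came near the control range. The log2 fold change was 0.63 (SE 0.063, adjusted p = 3.37e-06), with a 95% interval from 0.49 to 0.77 that includes the cutoff of 1.5-fold. Without control replicate 2, the lowest of the control libraries, it was 0.58, just under that cutoff, and only EGR1 then remained past both cutoffs.

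SPRY4 (ENSG00000187678.10, chr5:142310427-142326455, minus strand), a close relative of SPRY2, moved the other way. Its level was 11.5, 11.8 and 9.80 CPM in control and 9.56, 8.61 and 8.83 CPM in knockdown libraries, with a narrow gap between the groups. The log2 fold change was -0.29 (SE 0.088, adjusted p = 0.0157), and the adjusted p rose to as much as 0.0689 when a single library was left out. SPRY1, which is not among the 10 genes, was also lower, at 9.48 CPM in control and 6.67 CPM in knockdown (log2 fold change -0.51, SE 0.099, adjusted p = 0.000814). SPRY3 had too few counts to be tested. SPRY2 was thus the only one of the 3 Sprouty genes tested that rose.

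Spred proteins recruit the RAS inhibitor neurofibromin, the product of NF1, to the membrane. SPRED1 (ENSG00000166068.13, chr15:38252836-38357249, plus strand) had 48.1, 56.1 and 54.6 CPM in control and 49.1, 52.1 and 53.0 CPM in knockdown libraries. The groups overlapped, and the log2 fold change of -0.04 had a 95% interval from -0.16 to 0.08 (adjusted p = 0.574), an interval that excludes changes of 1.5-fold. Its relative SPRED2 rose modestly, from 45.0 to 51.9 CPM (log2 fold change 0.21, SE 0.048, adjusted p = 0.00288). SPRED3 fell from 4.73 to 3.55 CPM with overlapping groups (log2 fold change -0.42, SE 0.15, adjusted p = 0.0342). NF1 itself did not pass the test (log2 fold change -0.06, adjusted p = 0.587).

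Among the 5 phosphatases of the feedback genes, DUSP4 (ENSG00000120875.9, chr8:29333064-29350684, minus strand) had the largest called change. It encodes a nuclear, inducible phosphatase of ERK and other MAP kinases. Its level was 64.5, 68.1 and 56.3 CPM in control and 49.4, 47.6 and 45.9 CPM in knockdown libraries. The knockdown libraries were all lower, at 75.7% of the control mean (log2 fold change -0.40, SE 0.061, adjusted p = 0.000127), and the adjusted p stayed at or below 0.0014 when each library was left out in turn.

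DUSP1 (ENSG00000120129.6, chr5:172768096-172771195, minus strand), an immediate early phosphatase that acts mainly on p38 and JNK, was far more abundant and changed little. It had 117, 111 and 107 CPM in control and 104, 103 and 103 CPM in knockdown libraries. The groups did not overlap, yet 92.7% of the control level remained (log2 fold change -0.11, SE 0.040, adjusted p = 0.0369). This call depended on the choice of libraries, scaling, filter and test. The adjusted p was 0.132 without control replicate 1, and 0.0964, 0.122 and 0.0973 without knockdown replicates 1, 2 and 3. It was 0.351 with library size alone, 0.0649 with no filter and 0.0513 with DESeq2.

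DUSP6 (ENSG00000139318.8, chr12:89347235-89352501, minus strand) encodes the cytoplasmic phosphatase that is specific for ERK and is a standard marker of ERK output. It was expressed at a low level, with 3.98, 4.14 and 4.10 CPM in control and 4.50, 4.11 and 3.75 CPM in knockdown libraries. The control values lay inside the range of the knockdown values. The log2 fold change was 0.03, with a 95% interval from -0.22 to 0.27 (adjusted p = 0.868), and it was -0.04 without knockdown replicate 1. The values rest on 107 to 172 read pairs per library. The interval excludes changes of 1.5-fold, but not the smaller changes that lie within it.

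DUSP5 (ENSG00000138166.6, chr10:110497907-110511533, plus strand), a nuclear ERK phosphatase, likewise gave no call. Its level was 9.16, 9.82 and 7.43 CPM in control and 8.30, 7.98 and 7.89 CPM in knockdown libraries. The knockdown values lay within the control range (log2 fold change -0.12, 95% interval -0.34 to 0.10, adjusted p = 0.339). The log2 fold change was -0.05 without control replicate 2 and -0.23 (adjusted p = 0.0506) without control replicate 3, the control library that set the low end.

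DUSP10 (ENSG00000143507.18, chr1:221701424-221742089, minus strand) encodes a phosphatase with preference for JNK and p38. Its level was 3.48, 2.99 and 3.49 CPM in control and 4.16, 4.62 and 3.58 CPM in knockdown libraries. The groups were apart by a small margin, with a log2 fold change of 0.31 (SE 0.13, adjusted p = 0.0622) that missed the threshold. The adjusted p was 0.0287 without knockdown replicate 3 and 0.0293 with library size alone.

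Of the other MAP kinase phosphatases, DUSP8 and DUSP16, both known to prefer JNK and p38, were higher in knockdown cells. DUSP8 rose from 3.42, 3.17 and 2.95 CPM to 6.50, 6.12 and 5.40 CPM (log2 fold change 0.92, SE 0.12, adjusted p = 2.39e-05), past both cutoffs. DUSP16 rose from 14.1 to 18.0 CPM (log2 fold change 0.36, SE 0.081, adjusted p = 0.0024). DUSP2 (log2 fold change 0.64, adjusted p = 0.052) and the ERK phosphatase DUSP7 (log2 fold change -0.12, adjusted p = 0.0819) did not pass the test, and DUSP9 had too few counts. Of 10 atypical dual-specificity phosphatases tested, which lack the MAP kinase docking domain, 4 rose and 2 fell, beside 23.3% and 25.0% of all genes, with a median log2 fold change of 0.14. DUSP22 alone passed both cutoffs (log2 fold change 0.66, SE 0.054, adjusted p = 4.84e-07), beside 5.30% of all genes in that direction. DUSP15 and DUSP26 had too few counts to be tested.

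To set the members side by side, CPM were divided by the length of the exons of each gene, all isoforms together, which understates the level of genes with long unused exons. In control cells DUSP1 stood at 55.4 ± 2.33 CPM per kb, followed by DUSP4 at 8.66 ± 0.829, SPRY2 at 6.84 ± 0.630 and SPRED1 at 6.83 ± 0.553 CPM per kb (SD, n = 3). DUSP5 had 3.47, EGR1 2.43, ETV5 2.27, SPRY4 1.68, DUSP10 1.17 and DUSP6 1.06 CPM per kb. Neighbours in this order whose libraries overlapped were SPRY2 and SPRED1, EGR1 and ETV5, and DUSP10 and DUSP6. In knockdown cells SPRY2 stood second at 10.6 ± 0.355 CPM per kb, above SPRED1 at 6.63 and DUSP4 at 6.55 CPM per kb, which overlapped with each other. EGR1 now stood at 4.89 ± 0.345 CPM per kb, above DUSP5 at 3.18 CPM per kb without overlap.

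**Figure D3:**
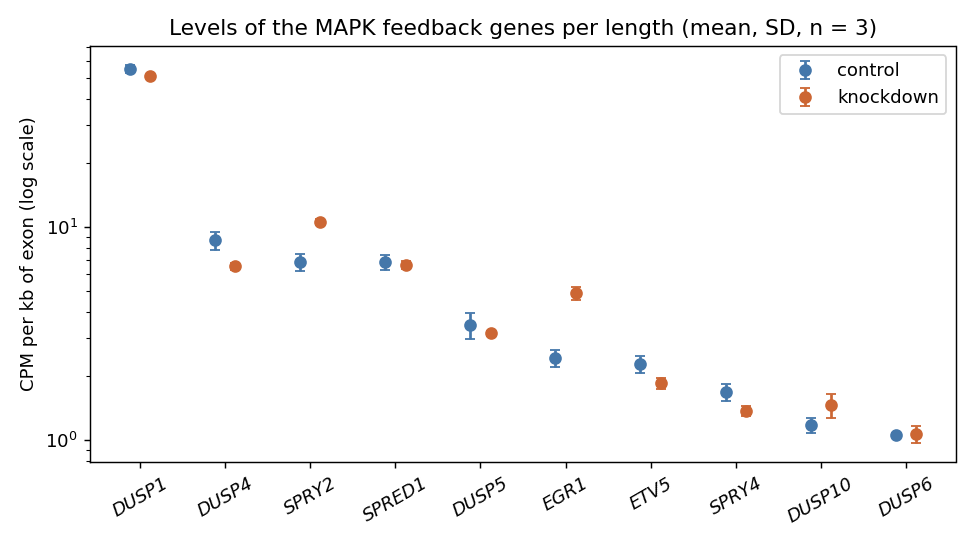
Level of each MAPK feedback gene per kb of exon (log axis) in control and knockdown cells, as mean and SD of 3 libraries, in the order of the control levels. DUSP1 lies far above the other members in both groups, from 55.4 to 51.4 CPM per kb, while SPRY2 and EGR1 move up the order in knockdown cells.

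The seed of an siRNA can lower transcripts that carry its complement in their 3′ UTR, and the members were searched for such sites. The guide site AGAATGG was present in the 3′ UTR of 17.1% of the 12538 tested genes with an annotated one, and the passenger site GTAACTT in 13.6% of them. Among the members, DUSP4 had 2 guide sites and 1 passenger site, DUSP6 had 1 guide site, and ETV5 had 1 passenger site. The other 7 members, with EGR1, SPRY2, SPRY4 and DUSP1 among them, had neither. The sites of DUSP6 (chr12:89347870-89347876) and ETV5 (chr3:186046595-186046601) are shown with 10 bases on either side and the site in capitals.
DUSP6: atgacatcctAGAATGGaccgactgta
ETV5: ctcccctgctGTAACTTacgtgacctg
DUSP4 and ETV5 were lower in knockdown cells and DUSP6 was not called. Whether these sites had a part in the values was not tested.

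Of 20 further genes that ERK signalling is known to induce, all of them tested, 5 rose and 5 fell, with a median log2 fold change of -0.09. These counts were close to the shares of all genes called, 23.3% higher and 25.0% lower. BTG2, an antiproliferative immediate early gene, rose from 5.05 to 8.51 CPM (log2 fold change 0.75, SE 0.098, adjusted p = 3.54e-05). It was the only gene of this list past both cutoffs, beside 5.30% of all genes higher and 6.43% lower past both. IER2, IER3, MAFF and EPHA4 also rose, by 0.29, 0.47, 0.30 and 0.34 on the log2 scale. PHLDA1, a pleckstrin homology-like gene induced by growth factors, fell from 25.0 to 16.9 CPM (log2 fold change -0.55, SE 0.087, adjusted p = 0.000157), and IER5, KLF10, MCL1 and EPHA2 fell by 0.31, 0.22, 0.16 and 0.14 on the log2 scale. The AP-1 genes FOS (log2 fold change -0.24, adjusted p = 0.205), FOSB (0.41, adjusted p = 0.264), FOSL1 (-0.14, adjusted p = 0.073), JUN (0.06, adjusted p = 0.25) and JUNB (-0.12, adjusted p = 0.124) did not pass the test.

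**Figure D4:**
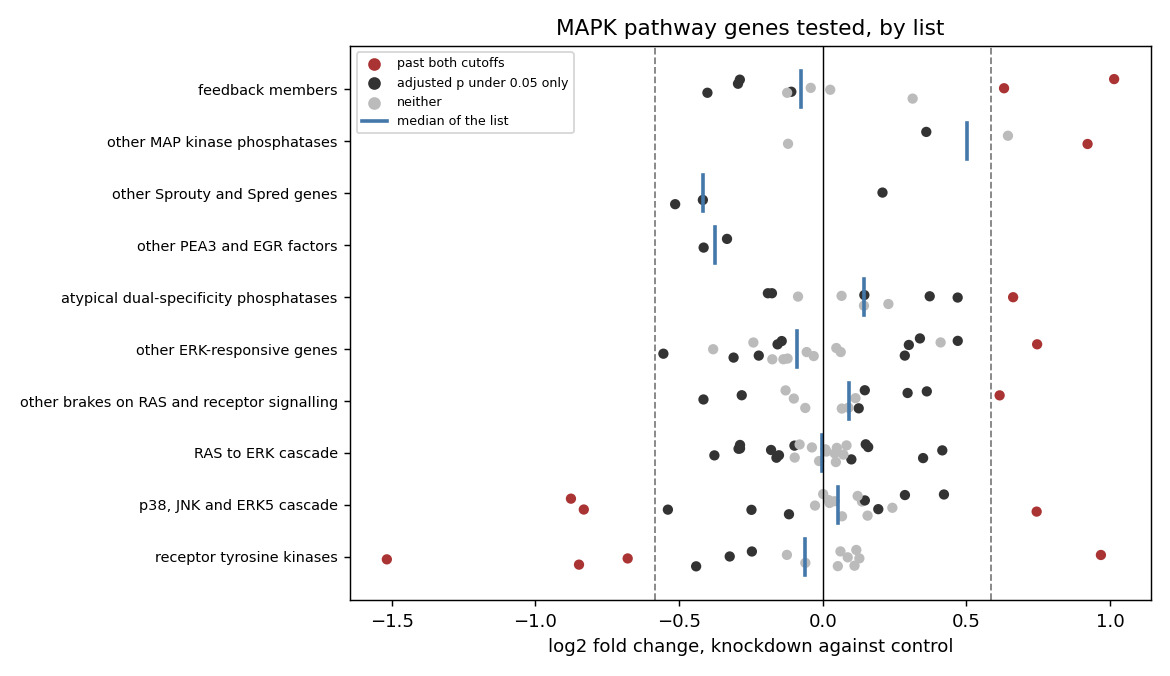
Log2 fold change of each tested gene of the MAPK pathway in knockdown against control cells, by list, with the median of each list (blue bar) and the cutoff of 1.5-fold (dashed lines); height within a list has no meaning. Calls lie on both sides of 0 in most lists, and the receptor tyrosine kinases include the lowest value, PDGFRA at -1.52.

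Of 13 other brakes on RAS and receptor signalling, 5 were higher and 2 lower at an adjusted p under 0.05, beside 23.3% and 25.0% of all genes, and the median log2 fold change was 0.09. RASA2, a GTPase-activating protein that switches RAS off, rose from 37.8, 41.9 and 40.0 CPM to 59.1, 62.6 and 61.7 CPM (log2 fold change 0.62, SE 0.047, adjusted p = 2.79e-07), and ERRFI1, an inhibitor of the EGF receptor, rose from 106 to 131 CPM (log2 fold change 0.30, adjusted p = 3.42e-05). Without control replicate 1, the log2 fold change of RASA2 was 0.58, just under the cutoff of 1.5-fold. RASA3 and DAB2IP, which also act on RAS, fell by 0.28 and 0.41 on the log2 scale.

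In the cascade from the adaptors through RAS, RAF and MEK to ERK and its targets, none of the 24 genes passed both cutoffs. Among all genes, 5.30% passed both as higher and 6.43% as lower. At an adjusted p under 0.05 alone, 5 of the 24 were higher and 8 were lower, beside 23.3% and 25.0% of all genes. The median log2 fold change was -0.002. SRF and MAP2K1, which encodes MEK1, were furthest from 0. MAP2K1 went from 82.2 to 63.2 CPM (log2 fold change -0.38, SE 0.048, adjusted p = 2.57e-05). MAPK3, the gene of ERK1, fell from 52.0 to 42.6 CPM (log2 fold change -0.29, adjusted p = 0.000254).

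The cascades to p38, JNK and ERK5 held 20 tested genes, of which 5 rose and 5 fell, again close to the 23.3% and 25.0% of all genes, with a median log2 fold change of 0.05. MAPK10, the gene of the kinase JNK3, fell from 6.01 to 3.26 CPM (log2 fold change -0.88, SE 0.10, adjusted p = 1.36e-05), and MAP2K6, an activator of p38, from 12.8 to 7.15 CPM (log2 fold change -0.83, SE 0.11, adjusted p = 4.66e-05). The other JNK genes, MAPK8 and MAPK9, were more abundant, at 58.8 and 84.3 CPM in control. Neither passed the test (log2 fold change 0.02 and -0.03, adjusted p = 0.631 and 0.58). The JNK scaffold gene MAPK8IP3 rose from 29.4, 18.9 and 26.4 CPM to 42.4, 41.2 and 42.2 CPM (log2 fold change 0.74, SE 0.11, adjusted p = 7.25e-05). Control replicate 2 was the lowest of its libraries, and without it the log2 fold change was 0.58, under the cutoff.

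At the head of the pathway, 6 of 15 tested receptor tyrosine kinases fell and 1 rose at an adjusted p under 0.05 (25.0% and 23.3% of all genes), with a median log2 fold change of -0.06, and FGFR2 had too few counts to be tested. PDGFRA fell from 7.69 to 2.69 CPM (log2 fold change -1.52, SE 0.15, adjusted p = 2.85e-06), MET, the receptor of hepatocyte growth factor, from 69.4 to 38.5 CPM (log2 fold change -0.85, SE 0.055, adjusted p = 6.57e-08), and KDR from 47.0 to 29.4 CPM (log2 fold change -0.68, SE 0.044, adjusted p = 5.63e-08). ERBB4 rose from 1.12 to 2.18 CPM (log2 fold change 0.97, SE 0.21, adjusted p = 0.00189). EGFR, with 370, 470 and 366 CPM in control and 304, 286 and 298 CPM in knockdown libraries, was lower in every knockdown library without passing the fold change cutoff (log2 fold change -0.44, SE 0.075, adjusted p = 0.000321).

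The genes whose pattern over the 6 libraries lay nearest to that of EGR1, by the root mean square difference of log2 CPM centred on the control mean, were SLC1A4 at 0.046, INTS14 at 0.061 and MARCHF1 at 0.077. Nearest to DUSP6 were HNRNPA1L2 at 0.016, DYRK4 at 0.024 and PACRGL at 0.027, whose log2 fold changes lay between -0.003 and 0.04.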

How the data were processed

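PolyA RNA libraries of 12Z cells were sequenced as paired ends. The authors aligned the reads with STAR 2.7.6a to GRCh38.p13 with GENCODE 36 annotation, kept uniquely mapped reads, and deposited raw gene counts, not normalized. The labels and the study's methods name different library kits. Counts on the strand antisense to read 1 were used (column 4), which made up 93.9% to 94.1% of stranded counts. Depth was 27742562 to 37551194 counts on genes per library, read pairs that named no gene (4.13% to 4.93% without a feature) were left out, and intervals within a library cover counting error only.

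Genes were filtered by filterByExpr (minimum count 10), scaled by TMM and tested with edgeR 4.0.16 (quasi-likelihood, condition as the only term) in R 4.3.3, with Benjamini-Hochberg adjustment. Standard errors are the log2 fold change divided by the root of the F statistic. Cutoffs were an adjusted p of 0.05 and a fold change of 1.5. The test was checked on simulated data, in which 200 of 200 planted changes were recovered, with 2 false calls. The planted changes were larger than those of every member but EGR1, and the spread was set alike for all genes. Changes were planted only in genes above a minimum mean CPM, which the members DUSP6 and DUSP10 did not reach. Smaller changes and genes at such low levels were therefore not checked. Symbols were matched for 60419 of 60660 identifiers, and positions came from GENCODE 44 on GRCh38. Promoters came from RefSeq, and siRNA sequences from the study's oligo list.

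The members and lists were chosen with earlier results of these data known. All 10 members were named, and from every other MAPK list each gene past both cutoffs, otherwise the 2 of largest change, with untested genes, the target, marker genes and the 3 genes (mean normalized count of at least 100) nearest to EGR1 and DUSP6. Further genes in the text were chosen after their values were seen. Alternatives were DESeq2 1.42.0, other scalings and filters, the unstranded column, a replicate block, a test against 1.5-fold, and each library left out.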

Additional observations from a re-analysis of the deposited data

How the results depend on the processing

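Over 13 alternatives other than the test against a fold change of 1.5, the log2 fold changes of the 10 members kept their sign in 128 of 130 cases and their side of the adjusted p threshold in 117. The 2 reversals were small values: DUSP6 at -0.04313 without knockdown replicate 1 (up to 0.08772 with other libraries left out), and SPRED1 at 0.02112 with library size alone. EGR1, SPRY2 and DUSP4 kept an adjusted p under 0.05 in all 13. The 13 changes of side were in DUSP1, SPRY4 and ETV5, which lost it, and in DUSP10, which gained it. Members past both cutoffs numbered 1 (EGR1) with the test against a fold change of 1.5, and 1 to 2 with each library left out. Genes past both cutoffs numbered 1778, 578 with that test, 1641 to 1815 with each library left out, and 1462 with DESeq2. The cause of these changes was not tested, except that the test against 1.5-fold asks for more than the cutoff does. Correlations of same-numbered deviations were -0.015, 0.005 and 0.057, within the range of differently numbered ones (-0.066 to 0.071). They gave no sign that replicate numbers paired the libraries, but such small correlations cannot exclude it. With a replicate block, 1747 genes and 2 members passed both cutoffs. DUSP6 rested on only 107 to 172 read pairs per library, and log2 fold changes within its 95% interval (-0.22 to 0.27) were not excluded.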
